A study of Homo sapiens with 8 samples.

Results

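The DDX and DHX genes encode the DEAD and DEAH box helicases, and the symbols of 21 of them were given to promoter peaks in a Cut&Run profile of the leukaemia fusion protein PML::RARA. Their peaks were chosen by name, as every peak to which the authors had given a gene symbol starting with DDX or DHX and a digit. This gave 21 peaks for 21 genes, 14 DDX and 7 DHX, of 7169 peaks with a gene symbol and 15412 peaks in all. The other 7148 peaks with a symbol, called other promoter peaks here, served for comparison. Cut&Run releases DNA next to an antibody-bound protein with a tethered nuclease and reads it by sequencing. U937-PR9 is a monocytic leukaemia line whose PML::RARA transgene is switched on by zinc, and the cells were given either 100 μM ZnSO4 or sterile water for 5 h. Anti-PML-RARA and anti-RARA antibodies were each applied to 2 replicates of both treatments, which made 8 libraries of this single line. The values here come from 1 list, which names no sample and was taken from the study's methods and text as that of zinc-treated cells and the anti-PML-RARA antibody. The water-treated cells and the anti-RARA libraries were not analysed here. Zinc switches on the transgene in this line, so none of the 8 libraries can tell zinc and the fusion protein apart.

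DEAD and DEAH box helicases use ATP to unwind short RNA duplexes and to pull proteins off RNA, and are named after the amino acids of a conserved ATP-binding motif. They act at nearly every step of RNA metabolism, from transcription and splicing to ribosome assembly, export, translation and decay, and a few sense viral RNA. DDX41 is known in myeloid cells because inherited and acquired mutations of it occur in myeloid neoplasms.

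Each peak had 1 position, 1 width, 1 total signal and 1 height, the largest signal in the peak. The peaks had been kept for being reproducible between the 2 replicates, but whether the signal is that of 1 replicate or of both is not stated, and no spread between replicates could be given. Sequencing depth per library is not known. The intervals given for shares are Wilson 95% intervals that cover the counting of genes or peaks only. Positions are those of hg19, and start sites, exons and introns are those of GENCODE release 44 on the same build. The apex is the midpoint of the interval of largest signal, and a distance to a start is taken to the nearest annotated start of the named gene.

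The sequences under the apex are shown for the 5 highest peaks that lay at their own gene and the 3 lowest, so that both ends of the range of heights can be read beside their motifs. They are written 5′ to 3′ in the direction of the gene. Capitals mark matches to GGGCGG, the box bound by SP and KLF factors, and to CCAAT, the box bound by NF-Y, on either strand. The sequences of DDX5 and DHX33 were limited to 30 bases because the surrounding window overlaps annotated exons, and the others hold the 81 bases centred on the apex.
DDX5, height 56, minus strand, chr17:62502667-62502696: tGGGCGGggctgggcttgggaaaGGGCGGg
DDX41, height 54, minus strand, chr5:176944104-176944184: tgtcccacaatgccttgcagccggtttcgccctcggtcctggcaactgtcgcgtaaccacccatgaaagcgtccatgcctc
DHX8, height 46, plus strand, chr17:41561138-41561218: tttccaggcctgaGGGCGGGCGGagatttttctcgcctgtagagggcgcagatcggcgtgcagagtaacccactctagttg
DDX23, height 43, minus strand, chr12:49246041-49246121: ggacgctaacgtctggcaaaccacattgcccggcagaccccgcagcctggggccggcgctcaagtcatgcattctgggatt
DDX39A, height 39, minus strand, chr19:14530229-14530309: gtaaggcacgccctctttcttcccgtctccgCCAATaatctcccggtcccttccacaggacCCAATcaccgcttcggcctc
DHX15, height 19, minus strand, chr4:24586261-24586341: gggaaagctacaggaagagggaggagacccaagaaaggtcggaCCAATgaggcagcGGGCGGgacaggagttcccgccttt
DDX17, height 19, minus strand, chr22:38902497-38902577: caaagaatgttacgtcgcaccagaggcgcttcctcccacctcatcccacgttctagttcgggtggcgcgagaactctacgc
DHX33, height 17, minus strand, chr17:5372363-5372392: ccccaggaagtgaaagccttcccaagcccc
Boxes occurred at both ends of the range, 2 GGGCGG boxes at DDX5 and 1 at DHX15. Printed sequences without either box also occurred at both ends, DDX41 and DDX23 among the high peaks and DDX17 and DHX33 among the low. These absences hold for the printed bases only. Within 200 bp of the apex, DDX41 and DDX23 had both boxes, DHX33 had GGGCGG and DDX17 had neither.

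Helicase promoter peaks as a group had heights and widths close to those of the other promoter peaks. Their heights ran from 17 at DHX33 to 56 at DDX5, with a median of 24 and quartiles of 21 and 39. The other promoter peaks had a median height of 26 and quartiles of 20 and 35. The mean log2 height of the helicases was 0.05 above that of the other promoter peaks, and the difference of medians had the opposite sign, -0.12. A height of 35 or more, the upper quartile of the other promoter peaks, was reached by 6 of the 21 (28.6%, interval 13.8 to 50.0%), against 25.4% of the other promoter peaks. These 6 were DDX5, DDX41, DHX8, DDX23, DDX47 and DDX39A, and the next below them was DDX6 at 33. At the low end, 5 of the 21 (23.8%) had a height of 20 or less, against 26.0% of the others.

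The widths told the same of the group and separated its members differently. The median width was 1078 bp with quartiles of 780 and 1429 bp, against 1108 bp with quartiles of 769.75 and 1540 bp for the other promoter peaks, and the difference in mean log2 width was -0.03. A width of 1540 bp or more was found in 3 of the 21 (14.3%, interval 4.98 to 34.6%), namely DDX6, DDX5 and DDX3X, against 25.0% of the other promoter peaks. Spearman's rho of height with width was 0.296 over the 21 helicase peaks and 0.448 over the 7148 other promoter peaks, a difference that was not tested. Both are descriptions over peaks of 1 list, and both measures come from the same signal. DDX5 was high and broad, DHX8 was high and narrow at 640 bp, and DDX6 was the broadest at 3129 bp with a height only moderately above the median. Total signal summed over the peak had a median of 11163 in the helicases and 10079.5 in the other promoter peaks.

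**Figure D1:**
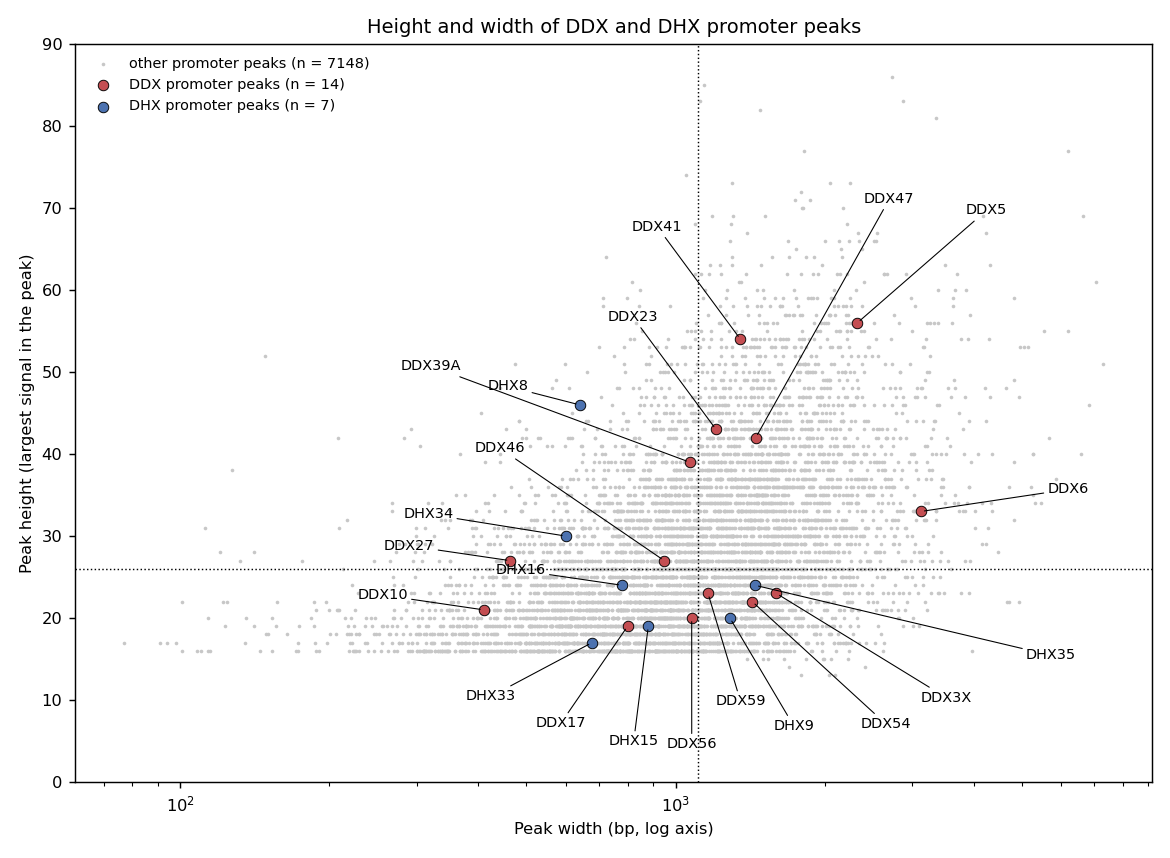
Peak height (linear axis) against peak width (bp, log axis) for the 14 DDX peaks (red), the 7 DHX peaks (blue) and the 7148 other promoter peaks (grey), with dotted lines at the medians of the other promoter peaks. The helicases spread over the grey cloud, with 11 of 21 below its median height of 26 and 11 of 21 below its median width of 1108 bp.

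The DDX peaks had a median height of 27 and a median width of 1185 bp (n = 14), and the DHX peaks a median height of 24 and a median width of 780 bp (n = 7). The ranges of height overlapped almost wholly, from 19 to 56 in DDX and from 17 to 46 in DHX. No DHX peak was as wide as 1540 bp, the broadest being DHX35 at 1447 bp.

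The helicases of pre-mRNA splicing held 8 of the 21 peaks and 4 of the 6 with a height of 35 or more, a height that 25.4% of the other promoter peaks reached. The roles were assigned with results of these data known, so this is a description. DDX41 (ENSG00000183258), a helicase associated with the spliceosome, had a height of 54 and spanned 1352 bp at chr5:176943299-176944650, taller than 96.8% of the other promoter peaks. Its apex lay 182 bp upstream of the start, outside the transcript. DHX8 (ENSG00000067596), which releases the spliced mRNA from the spliceosome, had a height of 46 at chr17:41560986-41561625, taller than 91.5% of the others but wider than only 16.8% of them. The apex was 55 bp upstream of the start. DDX23 (ENSG00000174243), a component of the U5 particle that acts in the activation of the spliceosome, had a height of 43 and spanned 1207 bp at chr12:49245455-49246661, with the apex 122 bp upstream. DDX39A (ENSG00000123136), which acts in splicing and mRNA export, had a height of 39 and spanned 1069 bp at chr19:14529507-14530575, with the apex 74 bp upstream.

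The 4 other splicing helicases with a peak of their own name were near or below the median of the other promoter peaks. DDX46, which acts with the U2 particle at the branch site, had a height of 27 and spanned 949 bp. DHX16, which remodels the spliceosome before the first catalytic step, had a height of 24 and spanned 780 bp, and its apex was 4 bp downstream of the start in the untranslated part of exon 1. DHX35, found in purified spliceosomes, also had a height of 24 but a width of 1447 bp at chr20:37590349-37591795, with the apex in coding exon 1 at 20 bp downstream. These 2 peaks of equal height thus lay about as far apart in width as the quartiles of the helicases. DHX15 (ENSG00000109606), which takes the spent spliceosome apart, had a height of 19 and spanned 881 bp at chr4:24585780-24586660, with 16.0% of the other promoter peaks lower and the apex 124 bp upstream.

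Of the helicases of transcription and nuclear RNA, DDX5 stood at the top of all 21 and its paralogue DDX17 near the bottom. DDX5 (ENSG00000108654), a coregulator of transcription that also acts in splicing and microRNA processing, had a height of 56, a width of 2329 bp and the largest total signal of the 21, 41195, at chr17:62501459-62503787. It was taller than 97.6% and wider than 93.8% of the other promoter peaks, and its apex lay 43 bp upstream of the nearest start. The gene CEP95 starts within 1 kb of the apex on the opposite strand, so signal at the promoters of these neighbours cannot be told apart. DDX17 (ENSG00000100201), which has many functions in common with DDX5, had a height of 19, a width of 800 bp and a total signal of 5804 at chr22:38902164-38902963, with the apex 195 bp upstream. Of the other promoter peaks, 16.0% were lower and 27.0% narrower than the DDX17 peak. DHX9 (ENSG00000135829), a helicase of double-stranded RNA and of RNA to DNA hybrids, had a height of 20 and spanned 1288 bp at chr1:182808112-182809399. Its apex was in intron 1, 250 bp downstream of the start.

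Under their own symbols, the helicases of ribosome biogenesis had mostly low peaks, and the only 1 above the upper quartile of the other promoter peaks lies far from its gene. DHX33 (ENSG00000005100), which acts in ribosomal RNA synthesis, had the lowest height of all, 17, with a width of 678 bp at chr17:5371847-5372524, and only 6.07% of the other promoter peaks were lower. DDX56 (ENSG00000136271), a nucleolar helicase of the large subunit, had a height of 20 and spanned 1078 bp at chr7:44613116-44614193, with the apex 51 bp upstream. Spread over this width, its signal averaged 5.82 per base, the lowest of the 21, against a median of 9.66. DDX10 had a height of 21 and the narrowest peak of all at 410 bp, and the DDX27 peak had a height of 27 over 464 bp. DDX54 had a height of 22 and spanned 1429 bp, with the apex 380 bp into the gene in intron 1 and the gene RITA1 starting within 1 kb on the opposite strand.

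The peak with the symbol DDX47 (ENSG00000213782), a helicase of the processing of ribosomal RNA, lay at chr12:12877805-12879256, had a height of 42 and spanned 1452 bp. Its apex was 87504 bp upstream of the nearest DDX47 start, and its nearer edge was 86994 bp away. The nearest annotated start of any gene was 105 bp from the apex, so by the annotation the peak lies at the start of another gene. No peak had its apex within 1 kb of a start of DDX47 itself. Without this peak, the median height of the helicases was 24 as before, the mean log2 height difference 0.02 in place of 0.05, and 25% in place of 28.6% reached a height of 35, an alternative added after the data had been seen.

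The helicases of translation and mRNA turnover held the broadest peak. DDX6 (ENSG00000110367), which represses translation and promotes decapping in P bodies, had a width of 3129 bp, more than 97.9% of the other promoter peaks, and a height of 33 at chr11:118660706-118663834. The peak covered the DDX6 start, but its apex lay 1710 bp upstream of it, the farthest of the 20 helicases whose start was in the peak. DDX3X (ENSG00000215301), which helps ribosomes scan structured leaders of mRNAs, had a width of 1599 bp and a height of 23 at chrX:41191915-41193513, with the apex 145 bp downstream of the nearest start. DHX34, which acts in nonsense-mediated decay, had a height of 30 and spanned 600 bp. The remaining gene with a peak, DDX59, is less well studied and is mutated in an orofaciodigital syndrome. Its peak had a height of 23 and spanned 1163 bp, with the apex 267 bp downstream of the start in intron 1.

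Beyond the authors' symbols, peaks also covered starts of helicase genes under other names. How common this is over all protein-coding genes was not counted. Of the 33 protein-coding DDX and DHX genes without a symbol of their own, 7 (21.2%, interval 10.7 to 37.8%) had an apex within 1 kb of a start. The highest of these, at DDX42, a helicase of the U2 particle, had a height of 50 and spanned 1780 bp at chr17:61850461-61852240, carried the symbol CCDC47 and had its apex 55 bp from the DDX42 start. At DDX39B, the splicing and export helicase also called UAP56, the peak at chr6:31508900-31510535 had a height of 39 and spanned 1636 bp, carried the symbol SNORD84 and had its apex 27 bp from the start. An annotated start of another gene lay nearer to this apex, so signal of the neighbours cannot be told apart there. DHX38, which acts in the second catalytic step of splicing, was covered by a peak named TXNL4B with a height of 37 and an apex 42 bp away. DDX49, of ribosome biogenesis, lay under a peak named COPE with a height of 38, and DDX19B, which releases mRNA from export proteins at the nuclear pore, under a peak named AARS1 with a height of 36. DDX20, a partner of the SMN protein in the assembly of splicing particles, had a peak of height 29 without a symbol, 9 bp from the start. The lowest was at DDX19A, the paralogue of DDX19B, with a height of 16 and the symbol LOC100506083. Of these 7 peaks, 5 were at or above a height of 35, as were 25.4% of the other promoter peaks. The genes named at DDX42, DHX38, DDX49 and DDX19B start close by on the opposite strand, and the apex was nearer to the start of COPE, at 137 bp, than to that of DDX49, at 181 bp, and at 0 bp from a start of AARS1 against 108 bp from DDX19B. Signal of the neighbours at such shared promoters cannot be told apart.

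GENCODE lists 54 protein-coding DDX and DHX genes. A peak with the gene's own symbol was found for 21 of them (38.9%, interval 27.0 to 52.2%), against 29.9% of the 20149 protein-coding genes. By the place of the apex, 26 of 54 (48.1%, interval 35.4 to 61.1%) had a peak within 1 kb of a start, against 39.2% of all protein-coding genes, and 27 had one within 3 kb. Both background shares lay within the intervals of the helicases. For 3 kb, no share over all protein-coding genes is given here.

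The genes with a peak at their start were unevenly spread over the roles. All 11 splicing helicases had an apex within 1 kb of a start (interval 74.1 to 100%), with heights from 19 to 54 and a median of 39. Of the 16 helicases of ribosome biogenesis, 6 had one (37.5%, interval 18.5 to 61.4%), with heights from 17 to 38 and a median of 21.5. The 2 ranges overlapped. Among the helicases of transcription and nuclear RNA, 4 of 5 had an apex at a start, with heights from 19 to 56, and among those of translation, export and turnover 4 of 8, with heights from 16 to 36. The role lists were drawn up with results of these data known, so these shares are a description and were not tested.

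**Figure D2:**
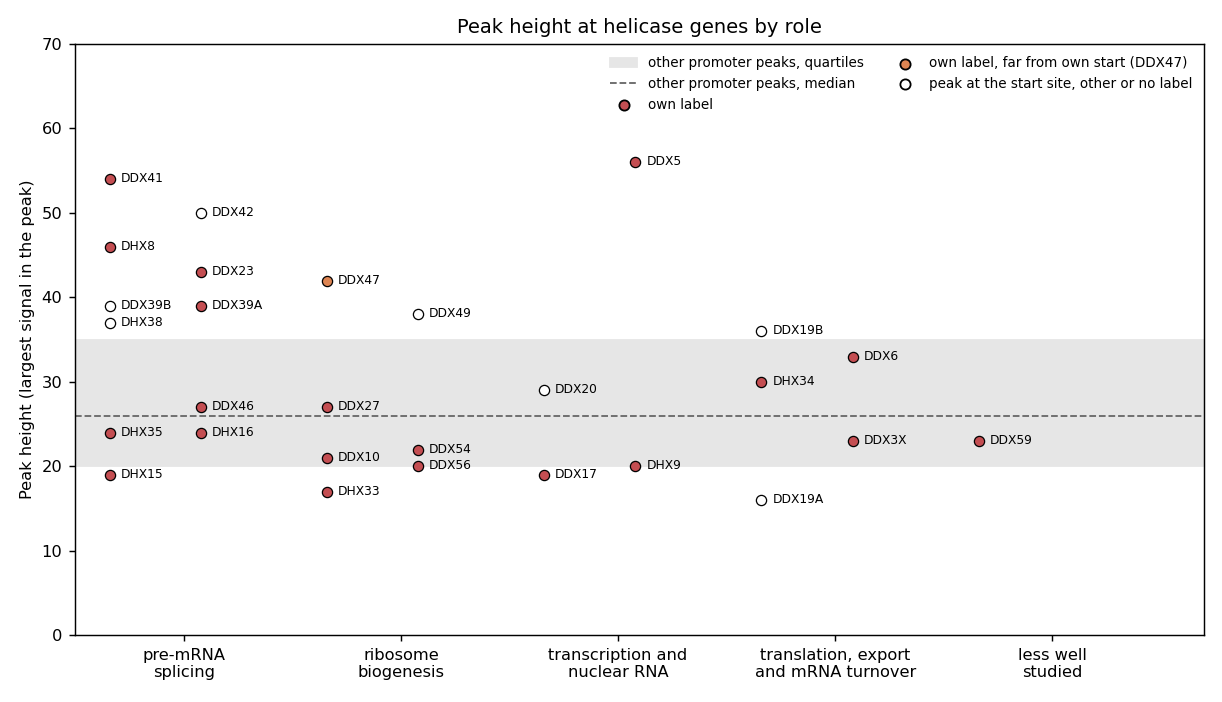
Peak height of the helicase genes by role, with 1 point per gene, filled red for a peak with the gene's own symbol, orange for the DDX47 peak far from its gene, and open for a peak at the start under another symbol or none. The grey band and dashed line give the quartiles, 20 and 35, and the median, 26, of the other promoter peaks, and 7 of the 11 splicing helicases lie above the band.

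No peak was found at the starts of the 26 remaining helicase genes. For 24 of the 26 genes, no peak lay within 10 kb of a start, a count not made over all protein-coding genes. The median distance from their starts to the nearest peak was 31213 bp over the 25 on chromosomes with peaks. DDX60, DDX60L and DHX58, relatives or members of the RNA sensors of innate immunity, were among them. RIG-I itself, which detects viral RNA in the cytoplasm, has the older symbol DDX58 but is RIGI in the annotation and so is not one of the 54. Its gene also had no peak and was 498679 bp from the nearest. DDX60 was 185123 bp, DDX60L 23492 bp and DHX58, the gene of LGP2, 20141 bp from one. The 4 germline helicases DDX4, DDX25, DDX43 and DDX53 also had no peak, with distances from 15041 bp at DDX25 to 781324 bp at DDX53. Likewise without a peak were DDX28 and DHX30, which act on mitochondrial RNA, and DDX11, a DNA helicase of sister chromatid cohesion. In ribosome biogenesis, DDX18, DDX21, DDX24, DDX31, DDX50, DDX51, DDX52, DDX55 and DHX37 had none, the closest being DHX37 at 4344 bp. DDX1, DHX29, DHX36, DHX32, DHX40, DHX57 and DDX3Y completed the list, and on the Y chromosome, where DDX3Y lies, the list held no peak at all. Absence from the list means that no reproducible peak passed the authors' threshold, and at an unknown depth it does not show that no signal was present.

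The peaks were centred close to the starts. An own start lay within the peak for 20 of 21 helicases (95.2%), against 90.5% of 6590 other promoter peaks of protein-coding genes. The apex was within 1 kb of an own start for 19 of 21 (90.5%, against 93.2%), DDX6 and DDX47 being the exceptions, and within 200 bp for 16. The median distance was 114 bp in the helicases and 99 bp in the other promoter peaks. The apex was downstream of the start in 6 of 21 (28.6%, against 23.7%), namely DDX3X, DDX54, DDX59, DHX9, DHX16 and DHX35. All of these 6 had heights of 24 or less, where 24 was the median of all 21 helicase peaks. Heights of the other promoter peaks were not split by the side of the apex. The apex lay outside the canonical transcript in 16, in an intron of it in 3 and in an exon of it in 2. Among the 16, DDX3X, DDX5, DDX17, DDX23 and DDX56 had the apex within the annotated bounds of the gene. The 20 peaks holding a start reached a median of 627.5 bp upstream and 489.5 bp downstream of it. Of these 20, 10 reached farther upstream than downstream. These extents, the places in the canonical transcript and the count within 200 bp were not taken for the other promoter peaks.

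**Figure D3:**
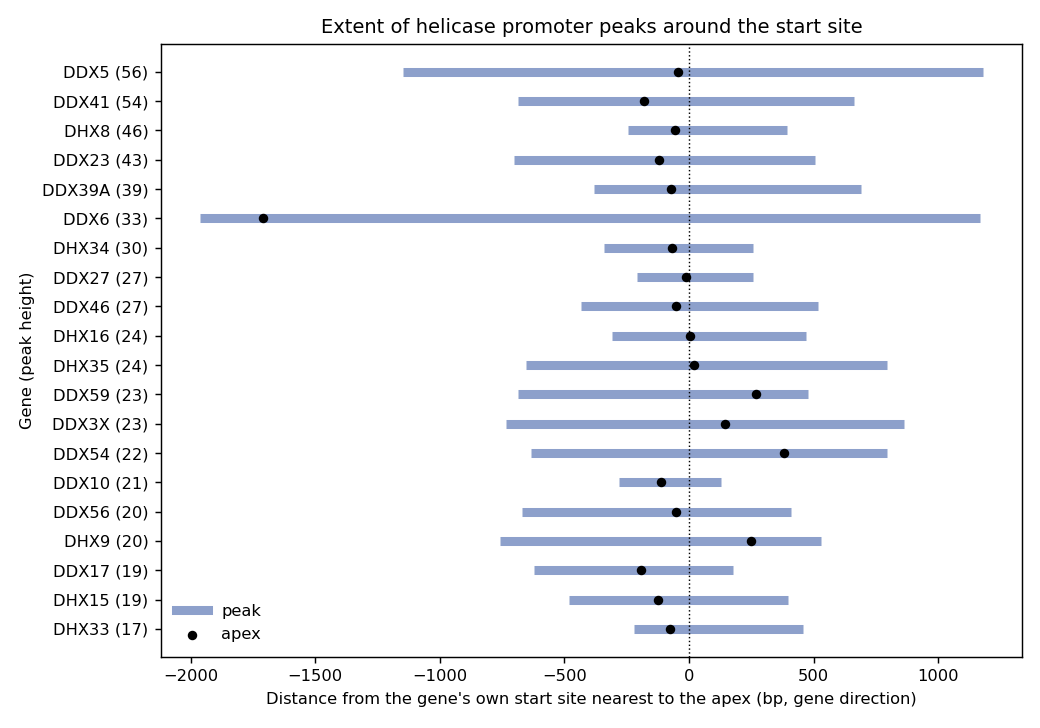
Extent of the 20 helicase peaks that hold a start of their gene, as distance from that start in the direction of the gene (bp, negative upstream), with the apex as a black dot and the peak height beside each name. Most apices lie close to the start, and the apex of DDX6 lies 1710 bp upstream.

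Start sites of other genes on the opposite strand lay near some of the peaks. A coding gene started within 1 kb on the opposite strand at 2 of 21 helicase peaks (9.52%, against 15.6% of other promoter peaks), DDX5 and DDX54, and any annotated gene at 7 of 21 (33.3%, against 35.4%). At 9 of the 21 genes, 14 further peaks lay in the gene or within 10 kb of it. This was not counted for the other promoter peaks. Of the 14, 8 had the symbol of another gene. The highest was an unnamed peak near DHX16 at chr6:30649914-30652959, 68 high and 3046 bp wide. DHX16 had 4 such neighbours, among them an unnamed peak of height 22 in its coding exon 14. A further unnamed peak of height 27 and 321 bp wide lay in intron 1 of DDX39A. A peak at TMED4 of height 44 lay near DDX56, whose own peak had a height of 20.

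Other RNA helicases without a DDX or DHX symbol gave similar shares. Of 21 such genes, 8 had a peak with their symbol (38.1%, interval 20.8 to 59.1%) and 10 an apex within 1 kb of a start (47.6%, interval 28.3 to 67.6%). The median height of the 8 was 27.5, and the highest were ZNFX1 at 42 and EIF4A3, a core protein of the exon junction complex, at 41. EIF4A1, the translation initiation helicase, had a peak of height 50 at its start under the symbol SNORA48. No peak had its apex within 1 kb of a start of ASCC3, DICER1, IFIH1, IGHMBP2, MOV10, MOV10L1, MTREX, SUPV3L1, TDRD9, UPF1 and YTHDC2. For MOV10, the edge of the nearest peak was 696 bp from a start. IFIH1, the gene of the RNA sensor MDA5, resembled DDX58, DHX58, DDX60 and DDX60L in lacking a peak at its start. Lack of a peak was common, as 39.2% of all protein-coding genes had an apex within 1 kb of a start.

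Short motifs were searched as exact matches on both strands within 200 bp of the apex. The DDX47 peak, far from its gene, was among the 21 windows and held GGGCGG and CCAAT. When windows were centred on the own start instead, that of DDX47 held no peak. Shares without DDX47 were not computed. GGGCGG occurred in 16 of 21 helicase windows (76.2%, interval 54.9 to 89.4%) and in 76.2% of the other promoter windows of the same length. CCAAT occurred in 12 (57.1%, interval 36.5 to 75.5%), against 44.1%. CCGGAAG, of the ETS family, occurred in 7 (33.3%, interval 17.2 to 54.6%), against 21.8%, and CACGTG, the E box, in 6 (28.6%, interval 13.8 to 50.0%), against 12.5%. GCGCATGCG, of NRF1, occurred in 3 (14.3%, interval 4.98 to 34.6%), against 3.93%. For the E box and the NRF1 motif the share of the other promoter windows lay below the interval of the helicases, which was not tested over the 12 motifs searched, and which motifs did so changed with the window. Within 100 bp of the apex it was CCAAT alone, at 57.1% (interval 36.5 to 75.5%) against 33.4%, while the E box was at 9.52% against 7.51% and the NRF1 motif at 9.52% against 2.77%. Around the own start it was CCGGAAG, at 42.9% (interval 24.5 to 63.5%) against 21.4%, the NRF1 motif, at 14.3% against 3.78%, and AAGATGGCG of YY1, at 14.3% (interval 4.98 to 34.6%) against 4.89%. CCAAT was there in the opposite order, at 38.1% against 42.8%. The 3 NRF1 matches were at DDX41, DDX27 and DDX10.

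For motifs of retinoic acid receptors and of myeloid factors, the share of the other promoter peaks lay within the interval of the helicases. AGGTCA, the hexamer bound by retinoic acid receptors, was found in 4 helicase windows (19.0%, interval 7.67 to 40.0%), at DDX5, DDX6, DHX35 and DHX33, against 16.6% of the others. Its shares were 19.0% against 9.26% within 100 bp of the apex and 23.8% (interval 10.6 to 45.1%) against 13.7% around the own start. These 4 peaks had heights of 56, 33, 24 and 17 and so spanned the range. The direct repeat of this hexamer with a spacer of 5 bases, the classical retinoic acid response element, was searched by exact letters only. The first copy of the hexamer was searched without its first base. An exact match was found in none of the 21 helicase windows and none of the 7148 others. Without a match in either group, the search cannot compare them. Variants of the element were not searched, so the result does not show that the element is absent. AGAGGAAG, of PU.1 type, occurred at DDX41 and DDX3X (9.52%, against 7.6%), and TGAGTCA, of AP-1, at DHX15 (4.76%, against 5.69%). TGACGTCA, the cyclic AMP response element, was found at DDX10 (4.76%, against 3.12%), AAGATGGCG of YY1 at DDX23 (4.76%, against 4.11%) and CTACAANTC of ZNF143 at no helicase (against 3.3%). The CCGGAAG and AGAGGAAG letters share the core GGAAG, but neither contains the other.

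**Figure D4:**
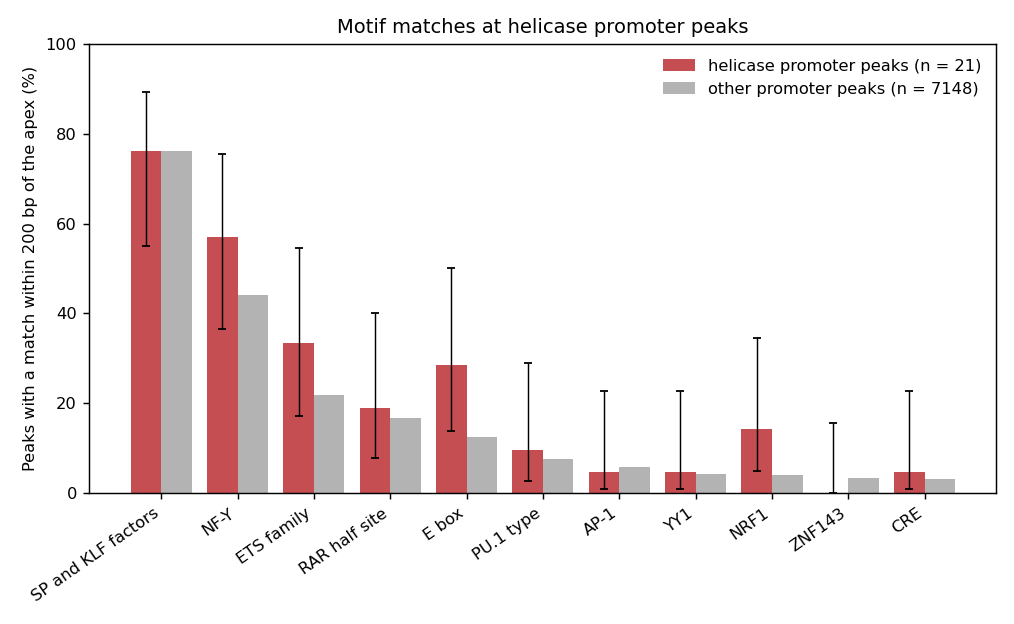
Share of peaks (percent, axis from 0) with an exact motif match within 200 bp of the apex, in the 21 helicase promoter peaks (red, with Wilson 95% intervals) and the 7148 other promoter peaks (grey). The shares are equal for GGGCGG of SP and KLF factors at 76.2%, and 28.6% against 12.5% for the E box.

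The helicases with a CCAAT box had a median height of 31.5 (n = 12), and those without one 24 (n = 9), while the other promoter peaks had 29 with and 25 without it. The helicases with the box include the DDX47 peak, of height 42. The same split was made for every motif and was not tested. The medians with and without a match were 27 and 23 for CCGGAAG, and 23.5 and 27 for the E box. DDX39A had 3 CCAAT boxes in its window and no other motif of the set, and DDX17 had no match to any of them. DDX5 had 5 kinds of motif, the most of the 21. The windows of the helicases had a median GC content of 60.1% and a median ratio of observed to expected CpG of 0.916, against 64.3% and 0.807 in the other promoter peaks. DDX6, the peak whose apex was far upstream, had the lowest values of the helicases in both, 46.1% and 0.261.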

How the data were processed

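The analysis used 1 list of Cut&Run peaks. It names no sample and was taken, from the study's text, the file's name and its number of peaks, as that of the anti-PML-RARA antibody in zinc-induced U937-PR9 cells. Per the paper's methods, reads were trimmed with Trimmomatic, aligned to hg19 with Bowtie2, cleared of duplicates with Samtools and of blacklisted regions with Bedtools, and peaks were called with SEACR against paired controls and filtered at an IDR below 0.05 over 2 replicates. Tool versions are not given in the sources used here. The authors deposited total signal and largest signal (height) per peak, with no stated normalization, and symbols from UCSC known genes. The headings name these columns otherwise, total signal as summit and height as the SEACR score. Their content was read from the values, since total signal was below height times width in all 15412 peaks. Members were matched by symbol, and all were found in GENCODE release 44. Genes described in full were those with the 5 highest, 5 widest and 5 lowest peaks and the innate sensors. Some genes of the wider set are not reported here by name. The members, roles and motifs were chosen with earlier results of these data known. Peaks are not replicates, so no test across them was made, and counts and medians stand beside those of all other promoter peaks. Scripts were tested on simulated data. Python 3.11.15, pandas 2.3.3, numpy 2.4.6, scipy 1.17.1, pysam 0.24.0 and matplotlib 3.10.9 were used.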

Additional observations from a re-analysis of the deposited data

How the results depend on the processing

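Of 58 alternative values of the counts, medians, differences and shares, 53 stayed within the interval, or within 1.5 times the count, of the values reported, and 5 did not. With DHX symbols only, the difference in mean log2 height was -0.14 in place of 0.05, and the share of peaks 1540 bp or wider was 0% in place of 14.3%. When the list was cut to peaks no lower than its median height, 10 genes in place of 21 had a peak. Their median height was 40.5 in place of 24, as fewer and only high peaks then enter. The share reaching the upper quartile was 50% in place of 28.6%. That quartile was taken anew from the cut other promoter peaks, so the thresholds of these shares differ. The height difference had the opposite sign, -0.12, as a difference of medians, and ranged up to 0.15 for DDX symbols only, so no direction can be given to it. The width difference ranged from -0.32 with DHX to 0.11 with DDX symbols only. Both lay within its interval, which was as wide as -0.5 to 0.38. For the differences, the interval was that of the helicase median, shifted to the mean difference. The interval of the median height ran from 21 to 39. Many alternatives share the same peaks, so a value that stayed within such an interval shows little about robustness. Centred on the own start in place of the apex, CCAAT was found in 38.1% of helicases against 42.8% of the others, the opposite order, and GGGCGG in 66.7% against 80.1%. No paired analysis was possible because each peak has 1 value and none per replicate. For the same reason no replicate could be left out, and depth, which sets which weak peaks reach the list, is unknown.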
